A study of Mus musculus with 12 samples.

Results

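CD11c+Siglec-H+CCR9lo precursors of mouse bone marrow were set against the 2 populations that lie on either side of them, pre-cDCs and pDCs, to describe the genes whose level was highest or lowest in the middle. Of the 15293 genes tested, 176 differed between the mean of the 2 precursor populations and the mean of the 2 end populations at an adjusted p under 0.01, which is 1.15% of all genes tested (edgeR's quasi-likelihood test, Benjamini-Hochberg adjustment). Of these, 132 were higher in the precursors (0.863%) and 44 were lower (0.288%). These genes were chosen by that contrast, so that its fold changes and adjusted p-values describe them and test nothing further about them.

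The RNA came from bone marrow of wild-type C57BL/6 mice, an inbred strain, with no treatment and no altered allele in any group. The 4 populations were depleted of lineage-positive cells and sorted as CD11c+ cells. They were Siglec-H- pre-cDCs, Siglec-H+CCR9loB220lo precursors (lo-lo), Siglec-H+CCR9loB220hi precursors (lo-hi) and CCR9hiB220hi pDCs, with 3 libraries each and 12 in all. In the paper's single-cell data lo-lo cells were mixed: some, high in Ly6d, lay near lo-hi cells, and others, without Ly6d, grouped with pre-cDCs. By flow cytometry some lo-lo cells expressed Zbtb46, which the paper uses to mark cDC commitment. The part of this mixture in the lo-lo levels below was not tested. Adult animals of both sexes were used, and their ages are not given per library in the sources used here.

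The labels on the deposited wells contradict the source data of the paper's heatmap of transcription factors. Wells were therefore assigned to populations by that source data: for each well, 1 sample listed there ranked all 378 pairs of 28 genes in the same order, and at least 7 pairs were out of order for every other sample. The label names the matched population in 4 wells and another population in 8. All groups below are the matched ones, and every statement on a population rests on this assignment. Grouped as labelled, the same contrast called 0 genes in edgeR and 0 in DESeq2, with 199 and 106 genes at an unadjusted p under 0.05.

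Total counts per library ranged from 1801463 to 5995971, with a median of 3087455. Levels are counts per 1e+06 of the total (CPM), scaled by TMM, and can be compared between libraries for 1 gene. Of the genes of the sort, Siglech and Ccr9 followed the matched groups. Siglech, the gene of the pDC lectin Siglec-H, averaged 308 ± 122 CPM in pre-cDCs, 855 ± 136 in lo-lo, 2131 ± 206 in lo-hi and 2791 ± 232 in pDCs (SD, n = 3). Ccr9, a chemokine receptor gene of mature pDCs, averaged 33.0 ± 11.5, 66.0 ± 3.26, 231 ± 18.0 and 461 ± 61.8 CPM (SD, n = 3) in the same order, so that both climbed through the precursors and neither was a member. Libraries of replicates 1 and 2 held 218 to 596 CPM of Xist, the RNA that coats the inactive X chromosome of females, against 26.6 to 58.4 CPM in replicate 3 of all 4 populations. Any difference in sex thus runs along the replicate number and not along the populations.

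Dendritic cells arise from bone marrow progenitors. Conventional DCs (cDCs) take up antigen and present it to T cells on MHC class II molecules, and pre-cDCs are their immediate precursors. Plasmacytoid DCs (pDCs) produce type I interferon and depend on the E protein E2-2, encoded by Tcf4. pDC development shares regulators with lymphoid cells, among them genes of early B cell progenitors. Progenitors of both lineages divide and carry transcripts of less mature cells.

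Promoters are shown for 3 genes that stand for the 3 patterns described next: Sox4, which was higher in both precursors than at either end, the cell-cycle gene Top2a, and Ifi205, whose mean was lower in both precursors than at either end although its pDC libraries overlapped theirs. Each is 300 bases from RefSeq on GRCm38.p6, from 250 bases before to 50 after the start, on the minus strand. Capitals mark CCAAT, the letters bound by NF-Y, on either strand (ATTGG on the other) in Sox4 at chr13:28953650-28953949 and Top2a at chr11:99024140-99024439.
Sox4: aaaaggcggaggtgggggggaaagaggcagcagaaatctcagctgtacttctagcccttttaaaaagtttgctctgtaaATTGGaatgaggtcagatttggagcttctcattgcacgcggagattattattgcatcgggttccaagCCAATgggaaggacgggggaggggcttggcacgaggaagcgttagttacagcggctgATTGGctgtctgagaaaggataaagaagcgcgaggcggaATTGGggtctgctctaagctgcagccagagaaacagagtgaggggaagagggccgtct
Top2a: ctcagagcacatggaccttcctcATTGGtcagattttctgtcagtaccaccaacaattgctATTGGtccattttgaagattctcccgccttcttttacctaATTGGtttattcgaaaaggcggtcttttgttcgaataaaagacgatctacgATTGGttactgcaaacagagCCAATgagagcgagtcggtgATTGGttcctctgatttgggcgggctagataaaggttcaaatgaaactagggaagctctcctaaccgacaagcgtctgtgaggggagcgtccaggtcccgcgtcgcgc
In Ifi205 at chr1:174031706-174032005 capitals mark GAAA, a pair of any bases and GAAA again on either strand, a core of the interferon-stimulated response element.
Ifi205: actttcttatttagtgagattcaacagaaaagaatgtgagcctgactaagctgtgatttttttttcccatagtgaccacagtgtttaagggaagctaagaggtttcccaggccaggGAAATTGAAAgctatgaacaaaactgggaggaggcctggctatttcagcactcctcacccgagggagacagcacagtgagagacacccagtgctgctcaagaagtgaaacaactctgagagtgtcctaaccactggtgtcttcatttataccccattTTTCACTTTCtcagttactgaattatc
The letters occurred 4 times in Sox4, 6 times in Top2a and 2 times in Ifi205, without overlap between the 2 motifs. CCAAT was present in 38.97% of the 10058 promoters available for genes tested, and the second motif in 3.18%. A promoter was available for 121 of the 176 member genes (68.75%), so no share was compared between groups of members. A match of letters describes the sequence and was not tested as a binding site.

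The 176 genes did not form a single pattern. Of the 132 higher genes, 34 had both precursors above both ends in fitted level, 53 were highest in lo-lo with lo-hi below pre-cDCs, 16 were highest in pre-cDCs, 18 in pDCs and 11 in lo-hi. Of the 44 lower genes, 23 had both precursors below both ends, 12 were lowest in pDCs, 6 in lo-hi and 3 in lo-lo. Over all genes tested, 1557 (10.2%) had both precursors above both ends and 1632 (10.7%) had both below, with or without passing the test. In 98 of the 132 higher genes, the higher of the 2 ends thus stood above at least 1 precursor.

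**Figure D1:**
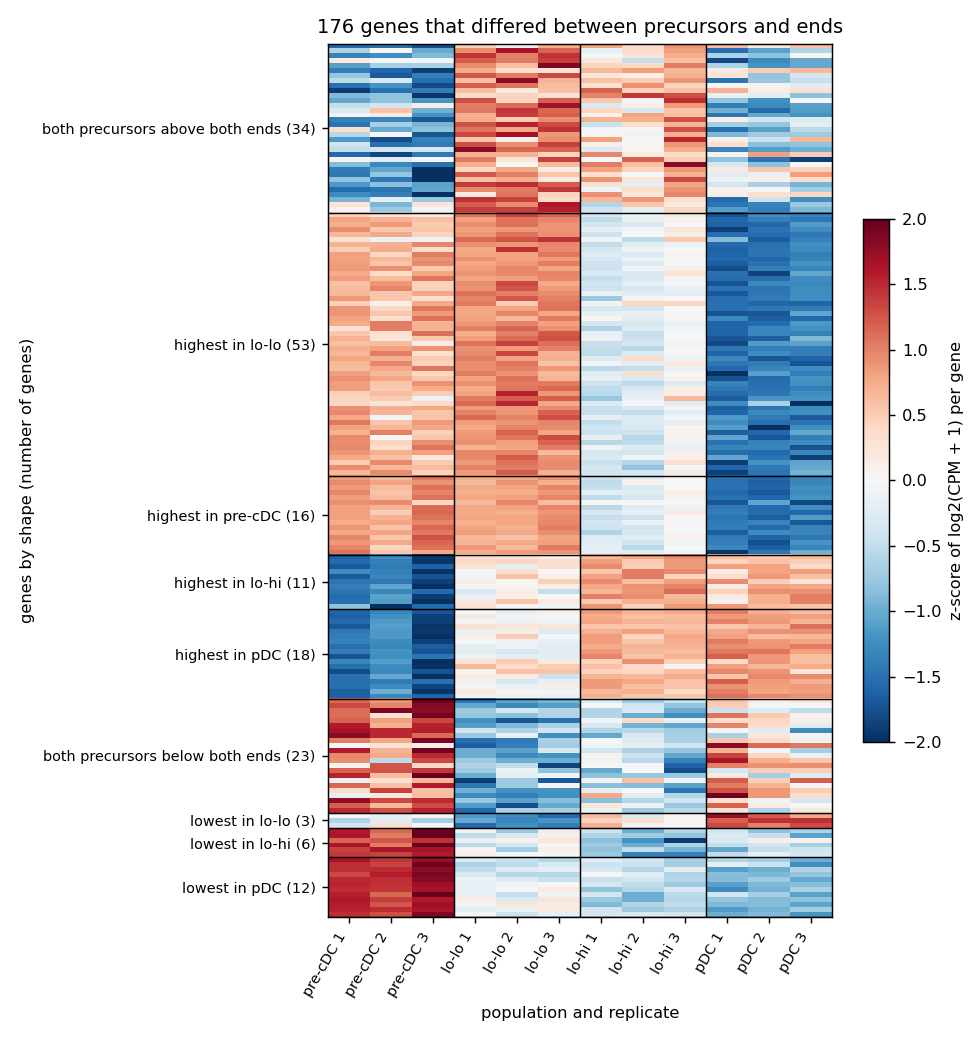
Level of the 176 genes chosen by the contrast (rows, grouped by shape with the number of genes) in the 12 libraries (columns), as z-scores of log2(CPM + 1) per gene. The 53 genes highest in lo-lo and the 16 highest in pre-cDCs share high levels in both of these populations, and the 34 and 23 genes of the first and sixth blocks have both precursors above or below both ends in fitted level.

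Among the 34 genes with both precursors above both ends were Sox4 and Myb, from the progenitor list of 20 genes. Sox4 (ENSMUSG00000076431, chr13:28948919-28953713 on GRCm38, minus strand), an HMG-box transcription factor of lymphoid progenitors, was measured at 23.7, 32.7 and 19.3 CPM in pre-cDCs and at 14.6, 18.6 and 23.9 in pDCs. It was measured at 52.6, 75.4 and 59.0 CPM in lo-lo and at 30.3, 39.3 and 50.2 in lo-hi. All lo-lo libraries were above all libraries of the ends, whereas 1 lo-hi library lay below the highest pre-cDC library. The log2 difference between precursors and ends was 1.20 ± 0.16 (SE). Myb (ENSMUSG00000019982, chr10:21124935-21160984), a transcription factor needed by blood progenitors, was measured at 42.8, 68.9 and 44.4 CPM in lo-lo and 42.6, 40.9 and 47.9 in lo-hi. The ends held 27.2, 29.8 and 17.9 CPM in pre-cDCs and 18.4, 24.6 and 27.8 in pDCs, so that the 6 precursor libraries did not overlap the 6 end libraries.

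Kinases of lymphocyte receptors were also in this group. Blk, a Src-family kinase of B cells and pDCs, was measured at 15.1, 11.3 and 15.2 CPM in lo-lo and 5.30, 6.73 and 9.37 in lo-hi. Pre-cDCs held 1.76, 1.98 and 2.70 CPM and pDCs 3.41, 2.84 and 5.64, so that 1 lo-hi library fell below 1 pDC library. Lck, the Src-family kinase of T cell receptor signaling, was measured at 21.9, 18.8 and 26.1 CPM in lo-lo, 12.8, 13.5 and 24.2 in lo-hi, 15.5, 7.93 and 8.78 in pre-cDCs and 6.13, 7.58 and 9.98 in pDCs. Its lo-hi libraries overlapped those of pre-cDCs. The T and NK cell markers fixed as a list were low: 3 of 5 had enough counts to be tested, Cd3e and Ncr1 did not, 0 were called, and their summed level was 9.21 to 38.4 CPM in lo-lo, 21.5 to 38.4 in lo-hi, 16.6 to 46.3 in pre-cDCs and 9.98 to 15.2 in pDCs. Their part in the Lck values was not tested.

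Itgax, which encodes the CD11c chain that all 4 gates required, was measured at 104, 95.2 and 112 CPM in lo-lo and 63.6, 45.5 and 77.2 in lo-hi. Pre-cDCs held 62.7, 56.0 and 56.1 CPM and pDCs 23.5, 30.6 and 34.7. It was thus high in lo-lo, whereas the lo-hi libraries overlapped those of pre-cDCs. The part of the gate in these values was not tested.

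Ly6d, a surface antigen of lymphoid and pDC-committed progenitors, had the smallest adjusted p of the 34 genes. It was measured at 2068, 1616 and 2445 CPM in lo-lo, 2523, 1928 and 2740 in lo-hi, 2262, 1673 and 2165 in pDCs, and 519, 539 and 447 in pre-cDCs. Its precursor libraries overlapped those of pDCs, and the separation was from pre-cDCs alone. Ephb2, an ephrin receptor, and Emid1, an extracellular protein, had the same form: the precursors held 13.2 to 19.1 CPM of Ephb2 against 12.4 to 16.9 in pDCs and 2.70 to 4.10 in pre-cDCs, and 17.4 to 29.4 CPM of Emid1 against 16.7 to 22.8 and 5.56 to 7.43.

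The other named genes of this group were Gpr25, an orphan receptor, Tnk2, a non-receptor tyrosine kinase, Fkbp5, a co-chaperone of steroid receptors, and the pseudogenes 9030619P08Rik and Gm5847. Fkbp5 was measured at 15.2 to 25.3 CPM in the precursors, 9.12 to 15.9 in pre-cDCs and 8.17 to 9.79 in pDCs, with overlap with pre-cDCs alone. Gpr25 was low throughout, at 8.28 to 25.9 CPM in the precursors, 5.69 to 13.4 in pDCs and 1.49 to 2.93 in pre-cDCs. Tnk2 was measured at 15 to 20.5 CPM in lo-lo, and its lo-hi libraries, at 7.07 to 12.4, overlapped the pre-cDC range of 5.95 to 10.8. Gm5847 is a processed pseudogene, whose reads may belong to its parent gene. 9030619P08Rik, at 14.5 to 29.7 CPM in the precursors and 6.32 to 8.52 at the ends, did not overlap.

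**Figure D2:**
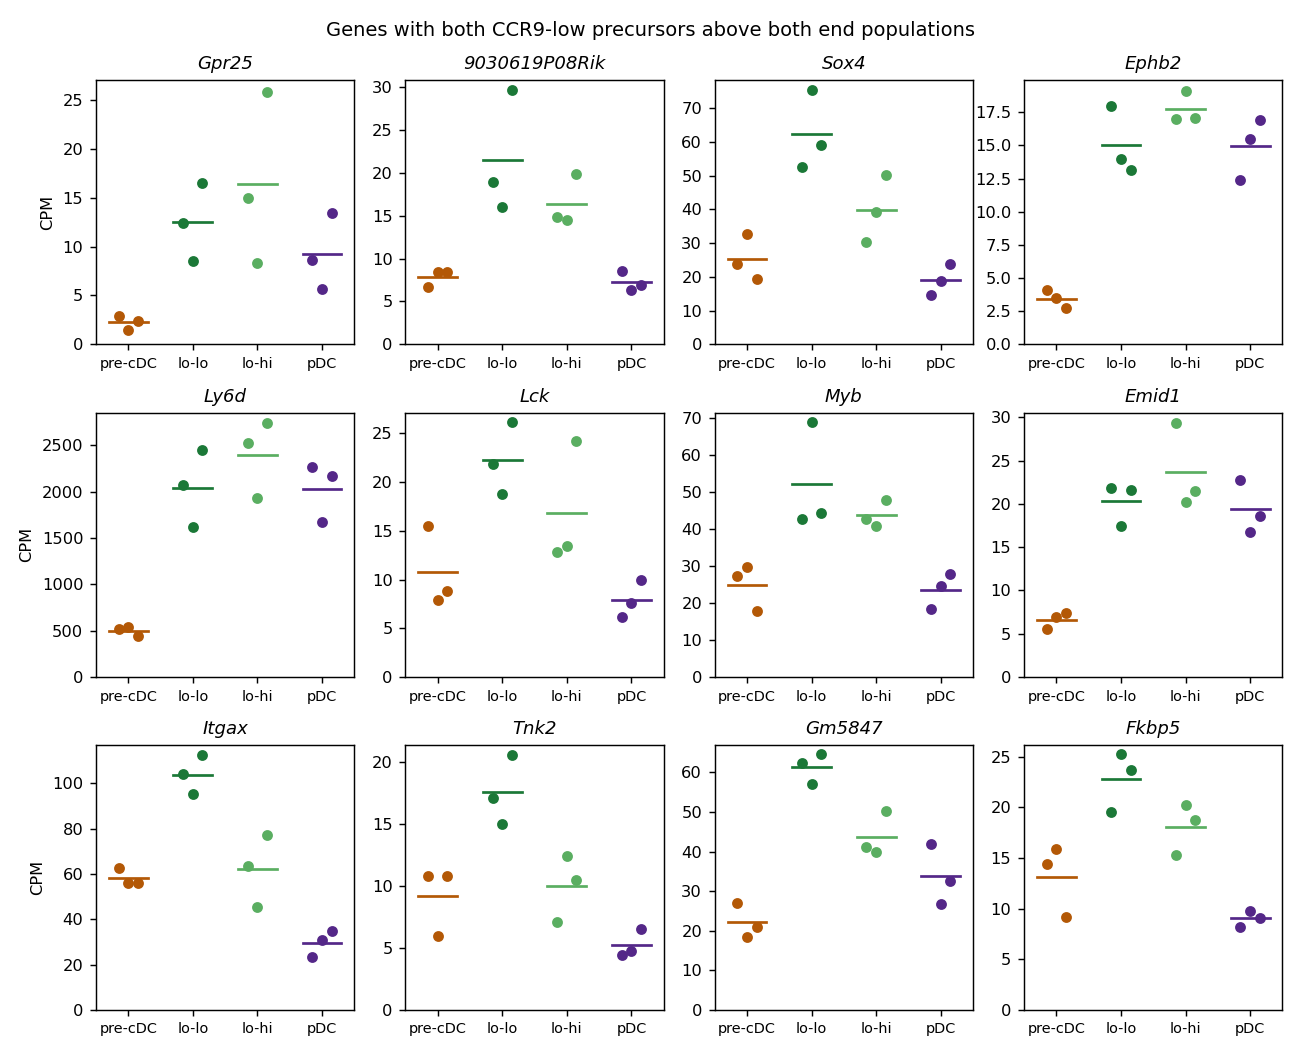
CPM (linear axis from 0) of the 12 named genes with both precursors above both ends, by population. Points are the 3 libraries and bars their mean. Sox4, Myb and 9030619P08Rik are low at both ends, whereas Ly6d, Ephb2 and Emid1 stand nearly as high in pDCs as in the precursors.

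In 10 of the 34 genes all 6 precursor libraries lay above all 6 end libraries, a form that 33 of all genes tested had (0.216%). Since the contrast chose these genes, nothing is read from that share. The 10 genes were named after their values were seen: 9030619P08Rik, Myb, Panx1, Elovl6, 1500009L16Rik, Pgls, Adam2, Dqx1, Gm26580 and Nos1ap. Panx1, which forms channels that release ATP, was measured at 57.6 to 69.4 CPM in lo-lo, 51.7 to 63.1 in lo-hi, 43.4 to 48.0 in pDCs and 26.0 to 31.7 in pre-cDCs. Elovl6, a fatty acid elongase, was measured at 31.3 to 33.1, 40.0 to 46.0, 21.3 to 26.9 and 14.2 to 21.3 CPM in the same order. Pgls, an enzyme of the pentose phosphate pathway, overlaps Fam129c on the same strand, so that its counts are uncertain.

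The larger set of higher genes held many genes of the cell cycle. Of the 53 genes highest in lo-lo, 19 belonged to the lists of S phase and mitosis or to the replication-dependent histone genes, and of the 16 highest in pre-cDCs 10 did. Over all 132 genes, 17 (12.9%) were in the 2 cell-cycle lists and 12 were Hist1h genes on chromosome 13. Of the 28 S phase genes tested, 7 were higher, 0 were lower and the median log2 difference was 0.55. Of the 24 mitosis genes, 10 were higher, 0 were lower and the median was 0.61. Over all genes tested, 0.863% were higher, 0.288% were lower and the median was 0.02.

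Clspn, the checkpoint protein claspin, was measured at 36.9, 45.6 and 33.4 CPM in pre-cDCs, 45.5, 80.2 and 52.7 in lo-lo, 18.8, 22.8 and 24.8 in lo-hi and 6.30, 7.27 and 8.68 in pDCs. The lo-lo libraries were the highest but overlapped pre-cDCs by 1 library, and the lo-hi libraries lay between pre-cDCs and pDCs. The same order was measured in Top2a, the topoisomerase of dividing cells: 337 to 448 CPM in pre-cDCs, 471 to 558 in lo-lo, 162 to 225 in lo-hi and 56.4 to 86.3 in pDCs, with no overlap between any 2 populations. Top2a was chosen after its values were seen.

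Both precursors therefore held cell-cycle transcripts at unequal levels, and lo-hi lay below pre-cDCs. The contrast of lo-hi with lo-lo and that of pDCs with pre-cDCs are orthogonal to the contrast that chose the genes, and were tested. They use the same estimate of each gene's spread as that contrast, so that they are not independent of the choice. Clspn was lower in lo-hi than in lo-lo by a log2 difference of -1.45 ± 0.21 (SE, adjusted p = 4.65e-05) and lower in pDCs than in pre-cDCs by -2.41 ± 0.24 (SE, adjusted p = 1.35e-08) in edgeR's quasi-likelihood test. Of the other genes named from the lists, Lig1, Uhrf1, Hmmr, Cenpf, Cenpe and Bub1 were lower in pDCs and in lo-hi too. Of all 28 S phase genes, 26 were lower in pDCs than in pre-cDCs and 22 lower in lo-hi than in lo-lo. Of all 24 mitosis genes, 24 and 23 were. Over all genes tested, 10.4% were lower in pDCs and 2.83% lower in lo-hi.

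The histone genes were 11 of the 15 Hist1h2a genes tested and Hist1h1b. Over all 47 Hist1h genes tested, 45 had a log2 difference above 0. Members of this family are nearly identical in sequence, so that reads may be split between copies and the 12 genes are not 12 separate measurements.

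Bcl2 (ENSMUSG00000057329, chr1:106538178-106714274), which protects cells from apoptosis, had the smallest p of all 176 genes and was named after its values were seen. It was measured at 55.3, 45.1 and 43.2 CPM in pre-cDCs, 96.9, 124 and 106 in lo-lo, 27.4, 33.6 and 44.1 in lo-hi and 7.15, 11.7 and 10.8 in pDCs. The lo-lo libraries did not overlap any other population, and the lo-hi libraries overlapped those of pre-cDCs. The log2 difference was -1.67 ± 0.19 (SE) from lo-lo to lo-hi and -2.33 ± 0.22 (SE) from pre-cDCs to pDCs, given without a test.

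Of 20 genes on the progenitor list, 4 were higher and 0 lower: Sox4, Myb, Runx1 and Cd93. Over all genes tested, 0.863% were higher. The other 16 genes of the list did not pass, and 14 of the 20 had a log2 difference above 0. Cd34, Myc, Kit, Gata2, Egfl7, Tal1, Cebpa and Mycn, named after their values were seen, were highest in pre-cDCs in fitted level. Of these, Gata2, Tal1 and Mycn were scarce in all populations. Cd34 averaged 25.0 CPM in pre-cDCs, 14.0 in lo-lo, 4.46 in lo-hi and 3.05 in pDCs. Cd93, a surface protein of early progenitors, was measured at 66.4 to 74.7 CPM in pre-cDCs, 71.8 to 76.6 in lo-lo, 31.1 to 43.5 in lo-hi and 14.3 to 18.7 in pDCs. Pre-cDCs and lo-lo overlapped, and the level was lower in lo-hi (log2 difference to lo-lo -1.04 ± 0.17, SE, adjusted p = 0.000119 in edgeR). Runx1, a master regulator of blood formation, was measured at 60.1 to 79.3 CPM in pre-cDCs, 100.4 to 109 in lo-lo, 44.8 to 84.3 in lo-hi and 29.6 to 37.3 in pDCs. Runx1 and Runx2 were among the 28 genes used to assign the wells, so that their values are a description only.

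The remaining higher genes were lowest in pre-cDCs and high in pDCs. Cox6a2, a cytochrome c oxidase subunit of pDCs, was measured at 216, 271 and 198 CPM in pre-cDCs, 740, 654 and 848 in lo-lo, 1481, 1311 and 1377 in lo-hi and 1684, 1343 and 1233 in pDCs. Lo-hi overlapped pDCs, lo-lo lay between the rest, and neither overlapped pre-cDCs. Pacsin1, an adaptor of endocytosis known from pDCs, had a smaller share of its change in lo-lo: 12.5 to 21.8 CPM in pre-cDCs, 52.2 to 60.1 in lo-lo, 138 to 176 in lo-hi and 168 to 217 in pDCs. Runx2, which controls the exit of pDCs from bone marrow, was measured at 193 to 277, 452 to 525, 516 to 553 and 438 to 617 CPM.

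Of 18 early lymphoid genes, 3 were higher and 0 lower, namely Ly6d, Il7r and Blnk. Over all genes tested, 0.863% were higher. Il7r, the interleukin-7 receptor of lymphoid progenitors, was measured at 16.2 to 30.7 CPM in pre-cDCs, 63.0 to 84 in lo-lo, 130 to 147 in lo-hi and 140 to 159 in pDCs. Blnk, the adaptor of B cell receptor signaling, was measured at 23.0 to 41.2, 89.8 to 103, 164 to 183 and 168 to 216 CPM. Both were higher in lo-hi than in lo-lo (log2 difference 0.94 ± 0.18, adjusted p = 0.000745 for Il7r and 0.85 ± 0.17, adjusted p = 0.0013 for Blnk, with SE, in edgeR). The 7 B cell markers were low, with a summed level of 18.9 to 45.6 CPM in pre-cDCs, 20.8 to 37.2 in lo-lo, 41.9 to 63.4 in lo-hi and 22.7 to 31.2 in pDCs, and 0 were called.

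**Figure D3:**
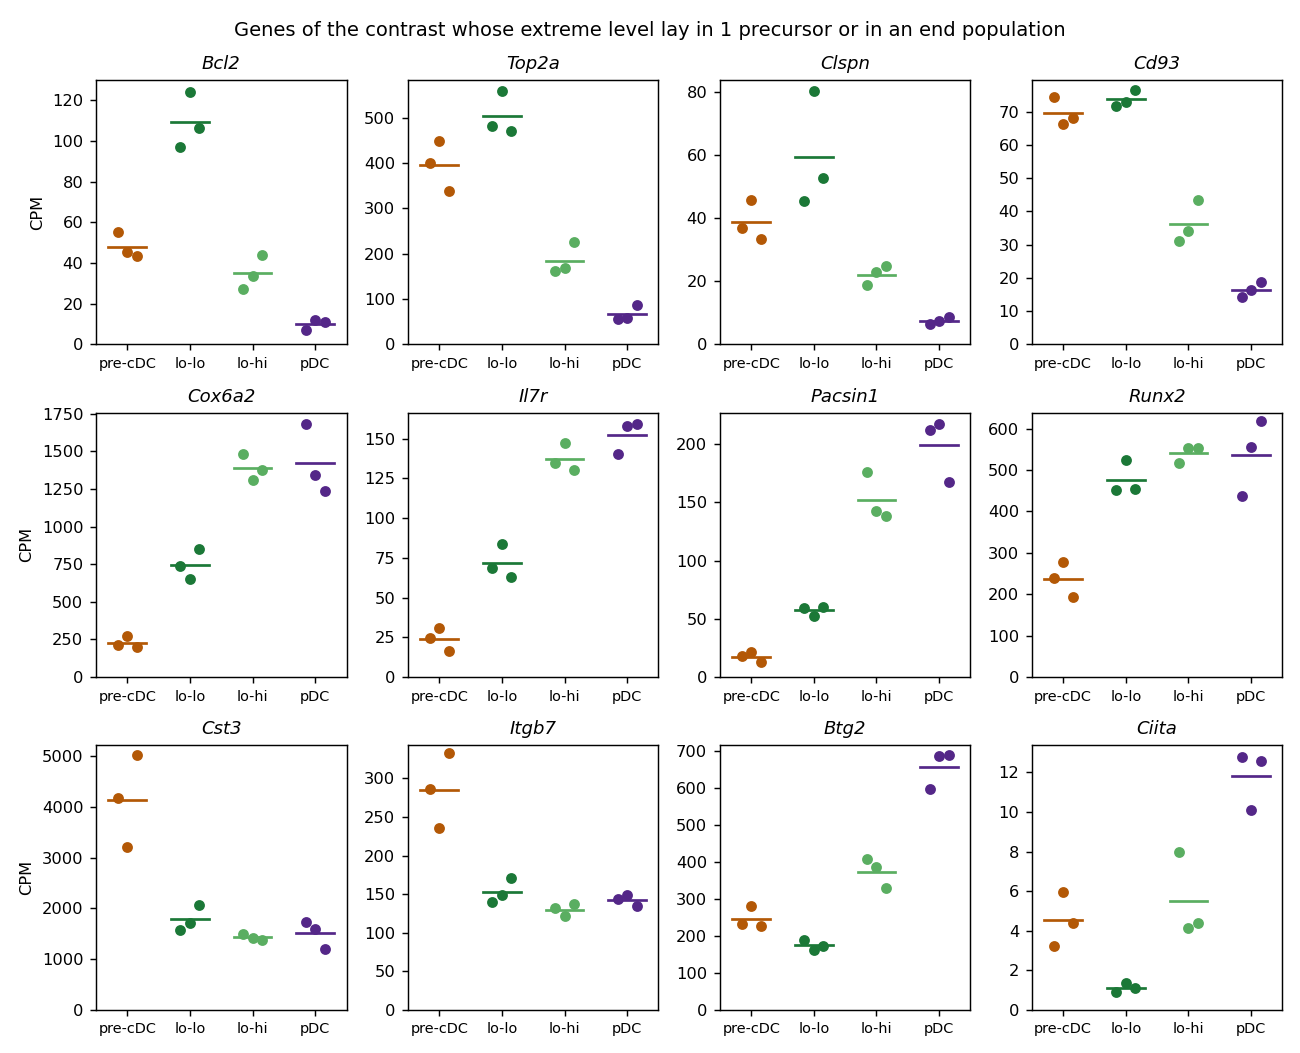
CPM (linear axis from 0) of 12 genes chosen by the contrast whose highest or lowest level lay in 1 precursor or at an end. Points are the 3 libraries and bars their mean. Bcl2, Top2a and Clspn are highest in lo-lo, Cox6a2, Il7r and Pacsin1 climb towards pDCs, Cst3 and Itgb7 are high in pre-cDCs alone, and Btg2 and Ciita are lowest in lo-lo.

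Of the 14 genes of antigen presentation on MHC II that were tested, 3 were lower in the precursors than in the mean of the ends and 11 did not pass. Over all genes tested, 0.288% were lower. None of the 14 MHC II genes tested had a log2 difference above 0, and the median was -0.70. A negative difference did not always place both precursors below both ends. Cd74, named after its values were seen, averaged 832 CPM in pre-cDCs, 483 in lo-lo, 2054 in lo-hi and 4414 in pDCs. H2-DMb1 and H2-DMb2 encode the β chains of the peptide-loading chaperone H2-DM. H2-DMb1 was measured at 188, 203 and 219 CPM in lo-lo and 240, 198 and 193 in lo-hi. Pre-cDCs held 442, 335 and 435 CPM and pDCs 363, 299 and 249, so that all precursor libraries were below all end libraries. H2-DMb2 was measured at 45.7 to 49.6 CPM in lo-lo, 40.8 to 61.4 in lo-hi, 53.1 to 96.6 in pre-cDCs and 75.1 to 107 in pDCs. The 2 genes are close copies on chromosome 17, between which reads may be split.

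Ciita, the master activator of MHC II transcription, was scarce, at 0.886, 1.37 and 1.12 CPM in lo-lo, 7.95, 4.14 and 4.41 in lo-hi, 3.22, 5.95 and 4.39 in pre-cDCs and 12.8, 10.1 and 12.6 in pDCs. Its dip was in lo-lo alone: lo-hi overlapped pre-cDCs and was higher than lo-lo by a log2 difference of 2.39 ± 0.41 (SE, adjusted p = 0.000283 in edgeR). The lo-lo levels are near the floor of 3 counts, which comes to 0.500 to 1.67 CPM over the libraries. The MHC II chains H2-Aa and H2-Ab1, named after their values were seen, did not pass (adjusted p = 0.0823 and 0.0491 in edgeR). H2-Ab1 averaged 842 ± 299 CPM in pre-cDCs, 577 ± 160 in lo-lo, 1752 ± 356 in lo-hi and 3766 ± 727 in pDCs (SD, n = 3). Per the paper the CCR9lo precursors carry little or no surface MHC II, whereas pDCs carry it, and the part of the gates in these levels was not tested.

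Among the 23 genes with both precursors below both ends, cell surface and signaling genes of myeloid cells were prominent by size of change. Cd209a, the DC-SIGN homolog of pre-cDCs, was measured at 362, 312 and 593 CPM in pre-cDCs, 83.3, 88.0 and 137 in lo-lo, 197, 170 and 137 in lo-hi and 274, 249 and 189 in pDCs. The lowest pDC library overlapped the highest lo-hi library.

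Cd300c2, an activating receptor of myeloid cells and pDCs, was measured at 17.4, 19.5 and 25.0 CPM in lo-lo, 31.6, 30.5 and 28.1 in lo-hi, 32.5, 36.2 and 33.8 in pre-cDCs and 63.9, 49.6 and 48.2 in pDCs. The libraries did not overlap, although the highest lo-hi and the lowest pre-cDC library were close. Cd52, a small surface antigen of leukocytes, was measured at 463 to 510 CPM in lo-lo, 558 to 737 in lo-hi, 734 to 885 in pDCs and 1055 to 1421 in pre-cDCs. Gm20425 was also without overlap, at 21.6 to 39.1 CPM in the precursors and 49.0 to 121 at the ends, but it shares its strand with Srprb and its counts are uncertain.

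In several genes of this group pDCs were nearly as low as the precursors. Junb, an AP-1 subunit, was measured at 250 to 365 CPM in pre-cDCs, 101 to 122 in lo-lo, 88.2 to 123 in lo-hi and 113 to 127 in pDCs. Ifi205, an interferon-inducible gene of the HIN-200 family with close copies on chromosome 1, was measured at 64.2 to 86.4, 22.1 to 36.2, 24.3 to 33.6 and 29.0 to 42.6 CPM in the same order. Glipr1, Gsap and Cyp4f18 were also highest in pre-cDCs, and their pDC libraries overlapped those of a precursor. Nfkb2, a subunit of the non-canonical NF-κB pathway, instead had its highest mean in pDCs, at 22.4 CPM (libraries 17.7 to 24.9). Its level was lowest in lo-lo, at 5.61 to 9.90 CPM. The lo-hi libraries of Nfkb2, at 13.8 to 18.6, overlapped the pre-cDC range of 13.2 to 19.3.

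**Figure D4:**
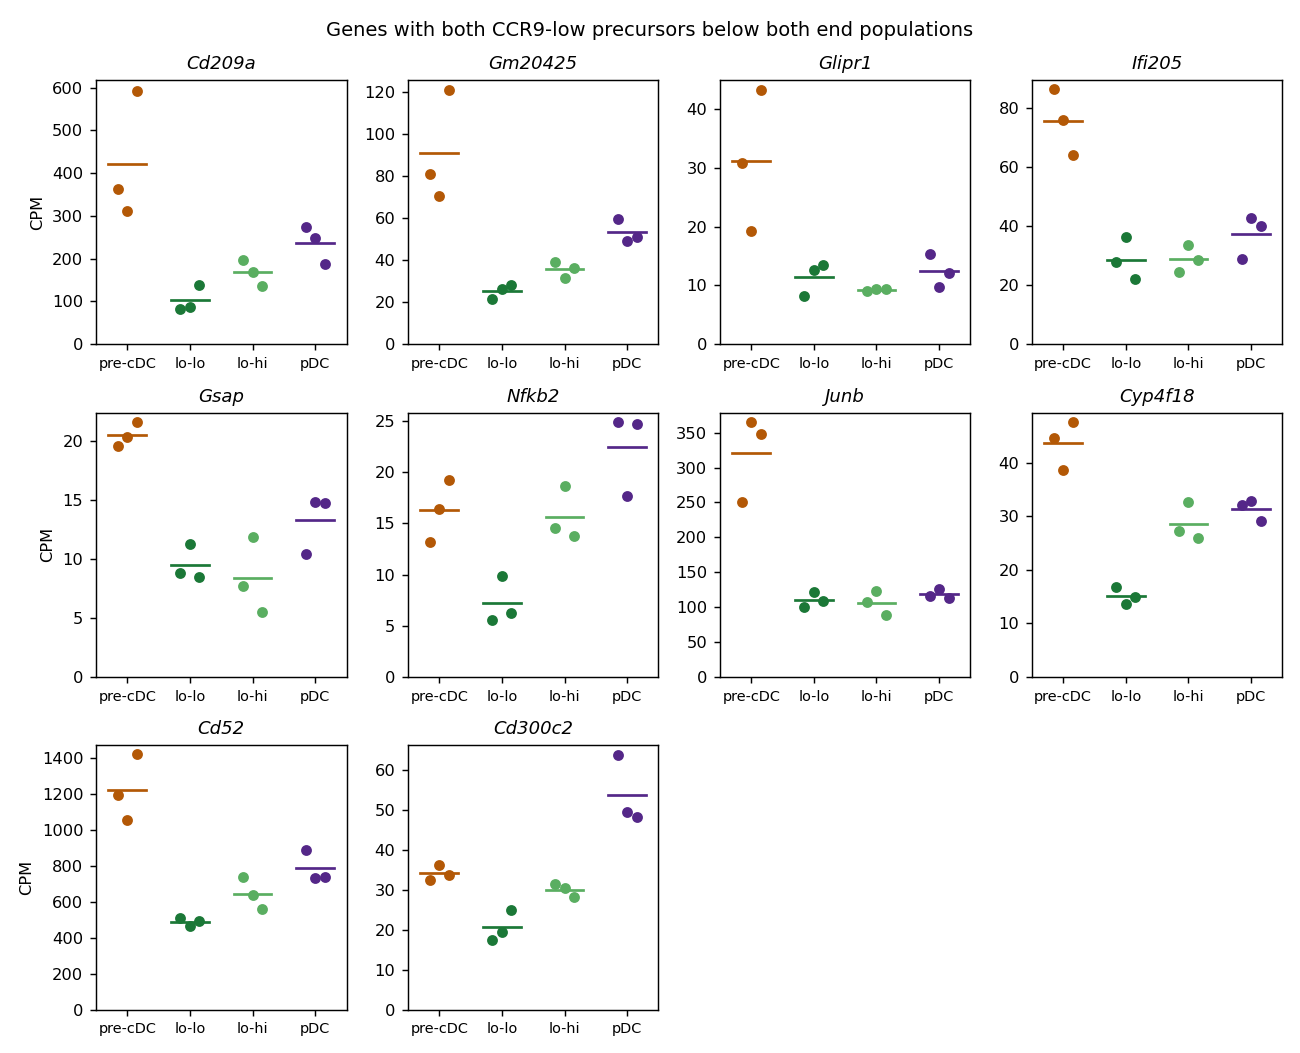
CPM (linear axis from 0) of 10 genes with both precursors below both ends, by population. Points are the 3 libraries and bars their mean. Gm20425 and Cd300c2 are higher at both ends than in any precursor library, whereas Junb and Ifi205 are high in pre-cDCs alone.

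In 7 of the 44 lower genes all precursor libraries lay below all end libraries, as in 21 of all genes tested (0.137%). Named after their values were seen, these included Gm20425, H2-DMb1, Cd300c2, Tnf, Sat1 and Ehbp1l1. Tnf, the cytokine, was measured at 3.84, 4.10 and 1.34 CPM in lo-lo, 5.96, 5.69 and 1.65 in lo-hi, 6.15, 13.4 and 7.77 in pre-cDCs and 11.4, 10.7 and 10.8 in pDCs. The value of 1.65 CPM in lo-hi replicate 3 is near the floor of 3 counts, which comes to 0.500 to 1.67 CPM over the libraries. The log2 difference ran from -0.74 in replicate 1 to -2.22 in replicate 3.

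The lower genes whose minimum was in lo-hi or pDCs were highest in pre-cDCs. Ifitm3, an antiviral membrane protein, and S100a4, a calcium-binding protein of myeloid cells, were named after their values were seen. Ifitm3 was measured at 723, 604 and 788 CPM in pre-cDCs, 138, 122 and 108 in lo-lo, 148, 131 and 103 in lo-hi and 107, 99.2 and 77.7 in pDCs. S100a4 was measured at 398 to 501, 67.3 to 101, 32.5 to 56.2 and 19.2 to 39.0 CPM. Cst3, the protease inhibitor cystatin C of cDCs, was measured at 3210 to 5025 CPM in pre-cDCs, 1569 to 2073 in lo-lo, 1373 to 1492 in lo-hi and 1207 to 1729 in pDCs, and Itgb7, an integrin chain of gut homing, at 236 to 332, 140 to 171, 121 to 137 and 134 to 149. In Cst3 and Itgb7 both precursors overlapped pDCs, whereas all lo-lo libraries of Ifitm3 and S100a4 lay above those of pDCs.

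Btg2, an antiproliferative gene, was 1 of the 3 genes with a minimum in lo-lo. It was measured at 233, 282 and 226 CPM in pre-cDCs, 189, 162 and 174 in lo-lo, 407, 386 and 330 in lo-hi and 599, 686 and 690 in pDCs. The lo-hi libraries lay above those of pre-cDCs (log2 difference of lo-hi to lo-lo 1.10 ± 0.15, SE, adjusted p = 1.82e-05 in edgeR).

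The end populations differed from each other in most of these genes. Between pDCs and pre-cDCs, edgeR's quasi-likelihood test called 21.7% of all genes tested. It called 109 of the 132 higher genes (82.6%), of which 39 were higher (11.4% of all genes) and 70 lower (10.4%) in pDCs, and 31 of the 44 lower genes (70.5%), of which 4 were higher and 27 lower. Between lo-hi and lo-lo, 5.17% of all genes were called. Of the 132 genes 76 were called (57.6%), 10 higher (2.33% of all genes) and 66 lower (2.83%) in lo-hi, and of the 44 genes 7 were called (15.9%), 5 higher and 2 lower. Both contrasts are orthogonal to the one that chose the genes. They use the same estimate of each gene's spread as that contrast, so that these shares are not independent of the choice. The members also had higher levels than other genes, with a median of 42.1 CPM for the higher and 56.9 CPM for the lower genes against 10.6 CPM over all genes tested, and the part of the level in these shares was not tested. In 23 of the 132 and 11 of the 44 genes neither contrast was called.

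**Figure D5:**
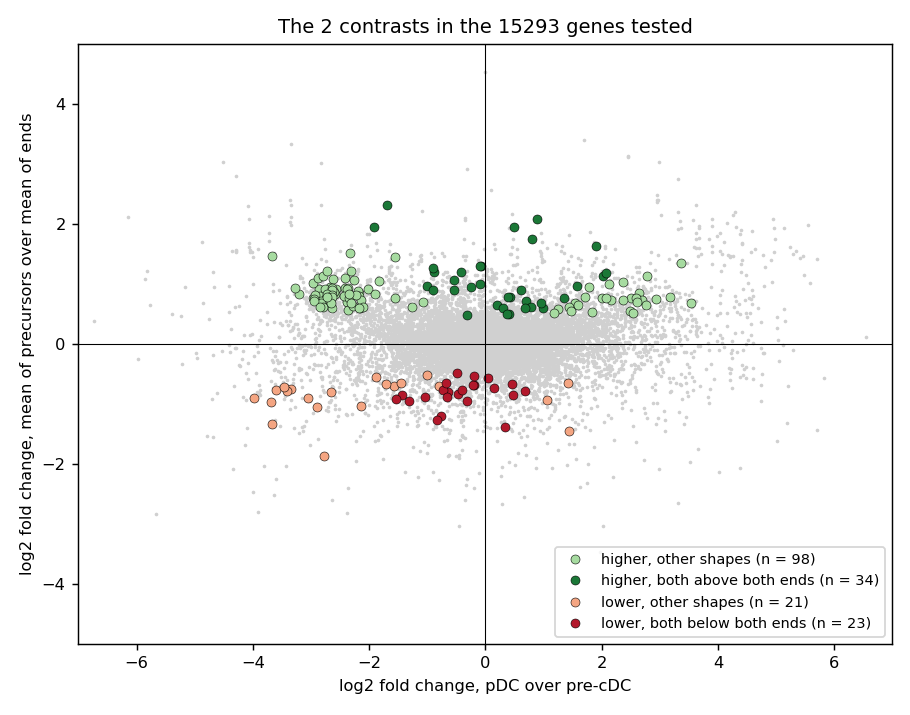
Log2 fold change of the precursors over the ends (vertical) against log2 fold change of pDCs over pre-cDCs (horizontal) for all 15293 genes tested (gray) and the 176 chosen by the vertical contrast (colored). The light green genes gather at horizontal values between about -3 and -2 and above 1, and the dark green and dark red genes lie nearer to 0.

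The contrast was also read in libraries that had not chosen the genes. Genes were chosen in the 8 libraries of 2 replicate numbers by the same fit and read in the 4 libraries of the number left out, without a test. Read in replicate 1, 16 of 16 higher genes were higher and 7 of 7 lower genes lower; in replicate 2, 53 of 53 and 23 of 23; in replicate 3, 67 of 68 and 21 of 21. The median log2 difference in the libraries read was 0.81 to 0.86 for the higher genes and -0.89 to -0.73 for the lower genes. Among all genes, 51.2% to 52.6% had a value above 0. Each of these fits chose its own genes, so that the counts do not describe the members as a set. Of the 68 higher and 21 lower genes chosen in replicates 1 and 2, 59 and 18 were members. The libraries that chose and those read were grouped by the same match of wells, so that this reading cannot test the assignment. No further conclusion on the members is drawn from it.

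Other gene lists gave some members or none. Over all genes tested, 0.863% were higher and 0.288% lower. Of 19 genes of pDC identity 3 were higher, Cox6a2, Pacsin1 and Runx2, and 0 lower. Of 21 genes of cDC identity 1 was higher, Itgax, and 3 were lower, Cd209a, Ifi205 and Cst3. Of 17 genes of Fc receptor and ITAM signaling 1 was higher, Blk, and 1 lower. Of 20 immediate early genes 2 were lower, Junb and Btg2, and of 15 chemokine and egress receptors 1 was lower, Itgb7. Interferon response (28 genes, median -0.28), cholesterol synthesis (22 genes, median 0.15) and Notch and B-lineage switches (15 genes, median 0.15) had 0 called in either direction.

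Neutrophil granule transcripts had log2 differences above 0 in all 14 granule genes, none of which passed the test. The 7 neutrophil markers had a median log2 difference of 0.80 with 0 called, and the 14 granule proteins a median of 0.73 with 0 called. The summed CPM of the 7 markers was 5278 to 17584 in lo-lo, 9812 to 20531 in lo-hi, 4351 to 11363 in pre-cDCs and 3222 to 6561 in pDCs. None of the members is on these 2 lists. The sums overlapped between precursors and pre-cDCs, and their part in the 176 genes was not tested. In bulk RNA, fewer cells of a type and less RNA per cell cannot be told apart, which holds for all values given. Markers of other cells had 0 called: the summed CPM of the 5 erythroid genes was 2501 to 8996 in pre-cDCs, 3015 to 3936 in lo-lo, 4536 to 5612 in lo-hi and 3349 to 6855 in pDCs, and that of the 4 basophil and mast cell genes was highest in pre-cDCs, at 102 to 808 against 39.3 to 176 in the precursors. The 6 monocyte and macrophage genes, 3 plasma cell genes and 4 platelet genes had median log2 differences of -0.16, 0.21 and 0.56.

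The number of genes depended on the libraries and on the model. With the replicate number as a block, which takes libraries of the same number as paired, 284 genes were higher and 110 lower, and all 132 and 44 were among them. Without lo-hi replicate 3, 60 genes were higher and 21 lower. Genes nearest to the threshold were Bzw1 (log2 difference 0.48, adjusted p = 0.00992) and Mki67 (0.83, adjusted p = 0.00996) inside it, and Cyp27a1 (-0.58, adjusted p = 0.0103) and Slc44a1 (0.66, adjusted p = 0.0104) outside it, all by edgeR.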

How the data were processed

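RNA of sorted bone marrow cells was measured by SCRB-seq in 12 libraries, 3 for each of 4 populations. Per the paper's methods and the labels, the authors adjusted RNA to 1 concentration, processed reads with zUMIs, mapped them with STAR 2.5.2b (the submitters' processing notes) to mm10 and assigned them to Ensembl genes of GRCm38. The deposited values are raw whole-number counts, to which the authors applied neither a normalization nor their filter on the mean. Whether these are reads or molecular identifiers is not given in the sources used here. Gene positions are from GENCODE vM21 on GRCm38, and 21410 of 21754 identifiers had a symbol. Overlapping genes on either strand are uncertain, because strand use in counting is not given.

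Wells were grouped by their match to the paper's source data, against the labels of 8 wells. The sorted cells came from 3 mice according to the legend, while the methods also describe pools of mice, so that p-values cover the spread between these libraries.

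Genes with a mean of 1 count or more were tested (15293, with 6461 left out) by edgeR 4.0.16 in R 4.3.3, with TMM scaling, robust quasi-likelihood fits of all 12 libraries without covariates and Benjamini-Hochberg adjustment at 0.01. The contrast of precursors against ends chose the genes, and 1928 genes had an unadjusted p under 0.05. CPM are counts per 1e+06 of the scaled total. The steps were tested on simulated data. Standard errors are the fold change divided by the root of the test's F. The members, gene lists, motifs and tests were chosen with earlier results of these data known. Named were, for each direction, the 12 most changed genes with a mean of at least 10 CPM and both precursors outside both ends, members on the gene lists (at most 4 a list and direction), sorting genes and markers. Others are marked as named after their values were seen. Some genes that these rules name are not reported here.

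The reported fit does not use the replicate number. In the alternative with a replicate block, same-numbered libraries were taken to share a mouse, since the legend gives 3 individual mice and Xist and Y-linked genes separate replicate 3 in all populations. Deviations from the group means correlated by 0.12 on average over 18 same-numbered pairs (11 above 0.1) and by -0.06 over 36 other pairs. Among libraries of other populations, 10 of the 12 libraries correlated best with a library of their own number. The same-numbered pairs ran from -0.15 to 0.31 and the other pairs from -0.32 to 0.26, so that the pairing does not rest on this check. This check was made after the blocked counts had been seen. Alternatives were DESeq2 1.42.0, its size factors, 2 other filters, a cutoff of 0.05, thinning to the smallest total, the replicate block, the deposited labels and leaving out each library.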

Additional observations from a re-analysis of the deposited data

How the results depend on the processing

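The 132 higher and 44 lower genes became 296 and 109 at a cutoff of 0.05, 260 and 119 without a filter on low counts and 284 and 110 with the replicate block, and 68 and 21 in replicates 1 and 2 only, an alternative added after the data were seen. DESeq2's Wald test gave 164 and 59, DESeq2's size factors 128 and 45, filterByExpr 123 and 42 and thinning 88 and 37. Leaving out 1 library gave 60 to 169 higher and 21 to 77 lower genes. The higher count moved by over 1.5 times without pre-cDC replicate 1 (75), lo-hi replicate 2 (80), lo-hi replicate 3 (60) and pDC replicate 2 (67). The lower count did so without pre-cDC replicate 1 (27) or 2 (77), lo-lo replicate 1 (23), lo-hi replicate 2 (28) or 3 (21) and pDC replicate 2 (26). Members called between pDCs and pre-cDCs stayed at 129 to 148, against 140, and those called between lo-hi and lo-lo at 60 to 102, against 83, under all alternatives but the deposited labels. With these labels all 4 counts were 0, also with the labelled replicate number as a block. The replicate block changed no call of the 53 named members, and leaving out 1 library ended the call of 1 to 16 of them. As labelled, 50 of the 53 changed sign, none past the threshold, because other wells then form the groups. Wells A4, A5, A8 and A9, labelled as precursors, were matched to the ends. Wells A2, A3, A10 and A11, labelled as ends, were matched to precursors. For genes chosen by the matched contrast a change of sign follows largely from this exchange, so that nothing further is read from it. The log2 differences under the labels were Gpr25 -1.22, Blk -0.89, Lck -0.83, 9030619P08Rik -0.65, Itgax -0.59, Ly6d -0.54, Tnk2 -0.48, Bcl2 -0.46, Gm5847 -0.45, Emid1 -0.37, Uhrf1 -0.36, Cenpf -0.35, Ephb2 -0.35, Rrm2 -0.35, Sox4 -0.30, Runx1 -0.30, Myb -0.25, Cd93 -0.23, Top2a -0.23, Fkbp5 -0.22, Hmmr -0.20, Lig1 -0.19, Elovl6 -0.18, Bub1 -0.15, Runx2 -0.14, Mki67 -0.14, Panx1 -0.11, Cox6a2 -0.0895, Clspn -0.0489, Cenpe -0.0347 for higher genes and Itgb7 0.18, Btg2 0.23, H2-DMb1 0.27, H2-DMb2 0.29, Cd52 0.31, Cyp4f18 0.32, Ifi205 0.33, Cst3 0.33, Cd300c2 0.37, Glipr1 0.40, Ciita 0.44, Gsap 0.47, Gm20425 0.48, Nfkb2 0.48, Cd209a 0.60, Junb 0.67, S100a4 0.73, Ifitm3 0.77, Ccl9 0.80, Tnf 0.86 for lower genes. Thinning to the smallest total ended the call of 11 of the 53.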
